A study of Mus musculus with 6 samples.

Results

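The genes described here make and run the machinery that takes a cell from G1 into S phase and copies its DNA: E2F transcription factors and the cyclins and kinase around them, the proteins that license and fire replication origins, the fork enzymes, and the enzymes that make deoxynucleotides. They were chosen by symbol, from textbook function, and a microarray probe was assigned to a gene through its RefSeq accession. Of 37 listed genes, 33 had a probe that matched and passed the filter on dim signal, among 29161 genes and transcripts tested. No probe was matched here for Orc1, Gins1, Gins2 and Rfc3, so these are not analysed.

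The samples are Lhx2 cells, a mouse line that resembles blood progenitors, is driven by the homeobox gene it is named after and grows in stem cell factor and interleukin 6. Transcripts were read on 1-colour arrays, 1 for each of 6 RNA samples. All 6 cultures, controls included, were kept without serum overnight, with bovine albumin in its place. The untreated group (3 arrays) received nothing further, and the TGFb1 group (3 arrays) received 10 ng/ml of TGF-β1, the cytokine transforming growth factor β1, over 2 h. The RNA came from 3 independent harvests, and the replicate number of a sample is read here as its harvest. Whether the line is 1 clone, and whether the cytokines stayed on during starvation, is not given in the sources used here.

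In a dividing cell, the retinoblastoma protein holds E2F factors inactive until cyclin-dependent kinases phosphorylate it. Free E2F then switches on cyclin E, the MCM helicase subunits, the DNA polymerases and the nucleotide enzymes, so their transcripts rise together at the G1/S boundary. TGF-β is a well-known inhibitor of this step in epithelial and blood progenitor cells. The series title places TGFβ/Smad4 in the control of progenitor proliferation, and the comparison asks whether 2 h of TGF-β1 altered these transcripts.

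An E2F-type site was searched in the promoter windows of the genes, since a shared upstream factor is what joins them in textbooks. The windows are RefSeq's (GRCm38.p6), from 250 bases before to 50 after the transcript start, and the letters searched were TTTCCCGC, TTTGGCGC, TTTCGCGC and TTTGCCGC on both strands; sites may overlap. Of 30 genes on the list with a window, 15 (50%) held at least 1 site, against 473 of 12510 (3.78%) among the tested genes with a window, 16 of 48 (33.3%) in a wider list of replication genes and 1 of 24 (4.17%) among G2/M genes. Cdk2, Cdc25a, E2f2, E2f3, Cdc6, Cdt1, Mcm3, Mcm5, Mcm6, Mcm7, Pola1, Lig1 and Uhrf1 were the measured genes with a site, and Orc1 and Rfc3 the unmeasured ones. A match is a run of letters and does not show that E2F binds there.

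The 5 sequences below are shown because they place the site in 1 driver, 3 licensing genes and 1 polymerase gene; each is the run of 170 bases that ends at the transcript start, 5′ to 3′ on the gene's strand, with the matched letters in capitals. Where 2 matches overlap, the capitals cover both.
E2f3 (chr13:29986064-29986233, minus strand): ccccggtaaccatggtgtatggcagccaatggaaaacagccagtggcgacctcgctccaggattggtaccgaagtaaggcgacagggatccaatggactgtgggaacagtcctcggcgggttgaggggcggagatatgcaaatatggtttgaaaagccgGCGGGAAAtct
Cdc6 (chr11:98907981-98908150, plus strand): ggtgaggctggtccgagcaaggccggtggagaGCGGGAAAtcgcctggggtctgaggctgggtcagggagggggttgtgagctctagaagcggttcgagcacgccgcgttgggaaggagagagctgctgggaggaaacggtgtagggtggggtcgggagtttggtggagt
Mcm5 (chr8:75109339-75109508, plus strand): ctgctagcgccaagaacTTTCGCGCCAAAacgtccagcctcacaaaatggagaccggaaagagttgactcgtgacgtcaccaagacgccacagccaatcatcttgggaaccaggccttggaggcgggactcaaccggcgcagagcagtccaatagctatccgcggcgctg
Mcm6 (chr1:128359706-128359875, minus strand): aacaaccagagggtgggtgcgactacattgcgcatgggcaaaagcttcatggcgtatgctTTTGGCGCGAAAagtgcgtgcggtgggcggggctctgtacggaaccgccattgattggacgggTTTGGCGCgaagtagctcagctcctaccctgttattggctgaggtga
Pola1 (chrX:93632156-93632325, minus strand): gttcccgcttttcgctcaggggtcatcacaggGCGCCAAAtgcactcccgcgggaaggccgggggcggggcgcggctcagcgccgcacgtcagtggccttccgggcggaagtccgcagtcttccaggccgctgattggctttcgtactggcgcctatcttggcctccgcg
Mcm5 and Mcm6 each hold a pair of overlapping sites on opposite strands, and Mcm6 has a further site closer to its start, 3 in all.

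Levels are given as log2 of the processed spot signal relative to the 75th percentile of the same array, so a value of 0 is a signal at that percentile. A level of one gene cannot be set against that of another, since probes differ in brightness; differences between arrays for 1 probe can. That percentile was a signal of 794.2 to 1031, and 82.9% to 90.3% of probes were well above background. The TGF-β targets Smad7, Skil and Ski, which encode inhibitors of SMAD signalling, rose 11.8-fold, 11-fold and 7.64-fold (limma with Benjamini-Hochberg adjustment, adjusted p = 0.00111, 0.000976 and 0.00111). All 6 blood progenitor markers (Kit, Cd34, Ptprc, Myb, Spi1 and Lhx2) were well above background on all 6 arrays. So were 3 of 5 erythroid, 4 of 5 macrophage, 5 of 5 granulocyte, 4 of 4 mast cell and basophil, 3 of 3 B cell and 3 of 3 T cell markers, and 0 markers passed the threshold between groups. Dim probes met this mark too, so it does not show strong expression. Lhx2 was at -4.54 to -4.05 untreated and -4.55 to -3.86 treated. The T cell marker Cd3d was at -5.04 to -4.79 untreated and -5.11 to -4.59 treated. Fibroblast markers (Col1a1, Col1a2, Col3a1, Dcn and Pdgfra) followed the harvest.

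No change of a G1/S or replication transcript was detectable after 2 h of TGF-β1 with 3 arrays per group. Of the 33 genes, 0 passed an adjusted p of 0.05 by limma with Benjamini-Hochberg adjustment over all 29161 genes and transcripts (n = 3 arrays per group), where 74 (0.254%) passed in all, 66 higher and 8 lower. With the harvest as a block, which takes the differences between harvests out of the error, again 0 of the 33 passed, where 196 (0.672%) did in all. At an unadjusted p under 0.05 there were 0 of the 33 without the block and 1 (E2f2) with it, where 5.77% and 10.9% of all genes had such a p.

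The measured sizes were small for nearly all of the genes. The 33 log2 changes (TGFb1 minus untreated) ran from -0.23 for Cdc45 to 0.67 for E2f2, with 10 positive, 23 negative and a median of -0.04 against -0.01 over all genes. Of all genes, 14172 were positive and 14989 negative. For 30 of the 33 (90.9%) the change was smaller than 0.25 in either direction, a size that 77.0% of all genes stayed under. The 95% confidence interval lay between a halving and a doubling, that is within 1 log2 unit, for 31 of the 33 (93.9%) and for 82.5% of all genes. E2f2 and Cdk2 were the exceptions, with upper ends above a doubling.

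**Figure D1:**
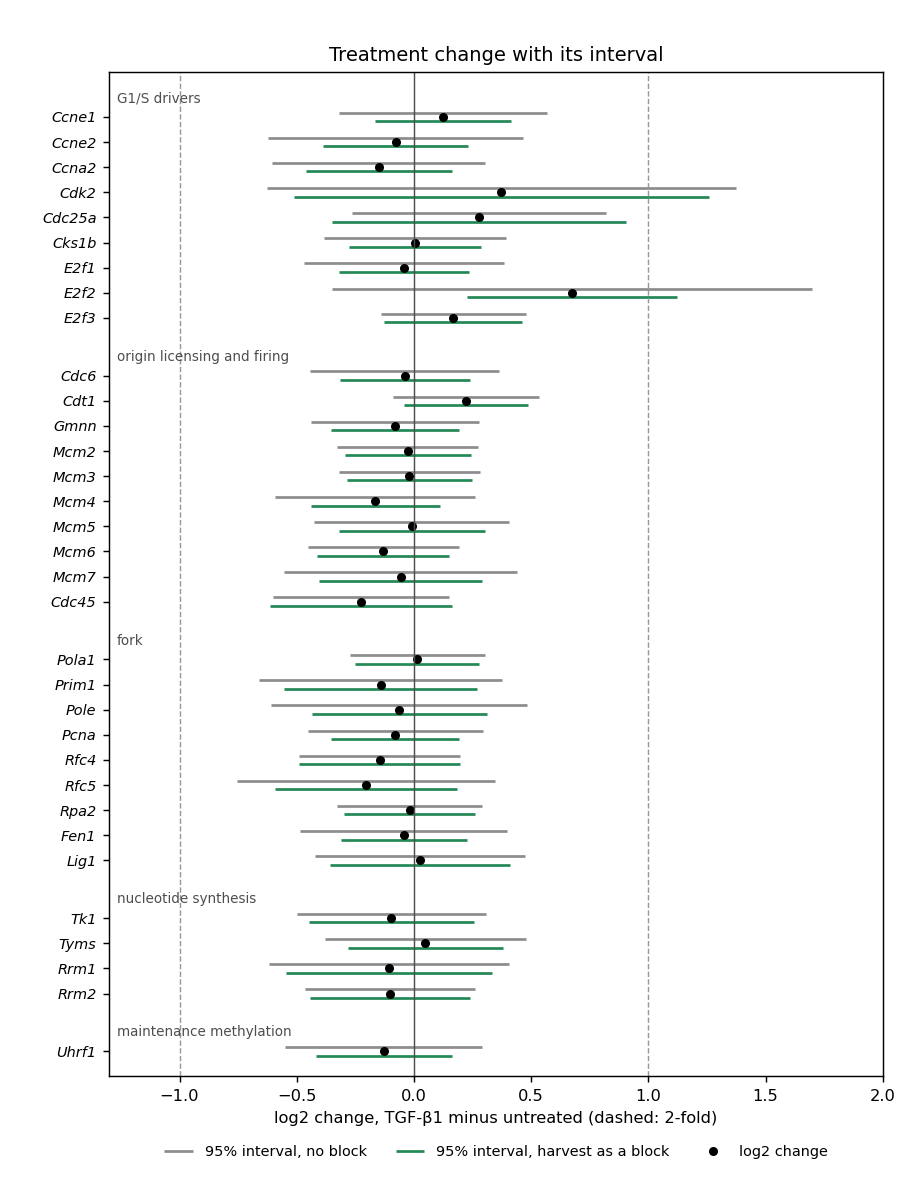
Log2 change, TGF-β1 minus untreated, of each of the 33 genes by role (points), with 95% confidence intervals from limma without a block (grey) and with the harvest as a block (green); dashed lines mark a halving and a doubling. All intervals without the block cover 0, and E2f2 alone has a blocked interval (0.23 to 1.12) that does not.

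Among the drivers of G1/S, 6 of 9 changes were positive and the median was 0.13, with 0 past the threshold. Cyclin E1 (Ccne1) partners the kinase CDK2 to complete the phosphorylation of the retinoblastoma protein. Its level was 2.60, 2.25 and 2.58 on untreated arrays 1, 2 and 3 and 2.62, 2.33 and 2.84 on the treated ones. The treated array was above its untreated partner in each harvest, by 0.03, 0.08 and 0.27, and the groups overlapped (log2 change 0.13, SE 0.19). A second probe also gave 0.13. Cyclin A2 (Ccna2), which follows cyclin E in S phase, had the lowest change of the drivers. It was at 4.22, 3.81 and 4.34 untreated and 4.14, 3.78 and 4.00 treated, lower in each harvest, with overlapping groups (-0.15, SE 0.19).

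E2f2, an activator E2F, had the largest change on the list. Its level was 0.97, 0.94 and 2.35 on the untreated arrays and 1.89, 1.79 and 2.60 on the treated ones. The untreated array of harvest 3 lay above treated arrays 1 and 2, so the groups overlapped, while within harvests the treated array was higher by 0.93, 0.85 and 0.25. The change was 0.67 (SE 0.43, 95% confidence interval -0.35 to 1.70), or 1.60-fold. With the harvest as a block the standard error was 0.17 and the interval 0.23 to 1.12 (limma with Benjamini-Hochberg adjustment, adjusted p = 0.255). On the 4 arrays of harvests 1 and 2 alone, with the block, E2f2 had the lowest adjusted p of any of the 33 genes in any setting tried (0.0664), still short of the threshold. The change was 0.23 within slide 1 and 1.25 within slide 2, but both values set arrays of different harvests against each other. The pairs that each lie on 1 slide gave 0.93 (harvest 1, slide 1) and 0.85 (harvest 2, slide 2). With 1 array left out, the change of E2f2 ran from 0.42 to 1.14.

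E2f3, another activator, was at -1.40, -1.45 and -1.29 untreated and -1.10, -1.26 and -1.26 treated. Every treated array lay above every untreated one, as 5.37% of all genes showed in the same direction, but the gap between the groups was small (log2 change 0.17, SE 0.13). A second, dimmer probe gave 0.34, also without overlap. E2f1, the founding activator, was at 0.78, 0.39 and 0.65 untreated and 0.81, 0.37 and 0.51 treated, in overlapping groups (-0.04, SE 0.18). Its level was lowest on both arrays of harvest 2.

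Cdk2 encodes the kinase that cyclins E and A activate. The brighter probe read -1.59, -0.79 and -1.76 untreated and -1.81, -0.82 and -0.40 treated, so its positive change (0.37, SE 0.42) came from the treated array of harvest 3. A second Cdk2 probe gave -0.13, and the 2 probes did not give the same sign. Cdc25a, the phosphatase that activates CDK2, likewise had a pair difference of 0.94 in harvest 3 against -0.14 and 0.02 in the others (0.28, SE 0.23). The remaining drivers, cyclin E2 (Ccne2, -0.08) and the CDK-binding protein Cks1b (0.00), had changes near 0.

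**Figure D2:**
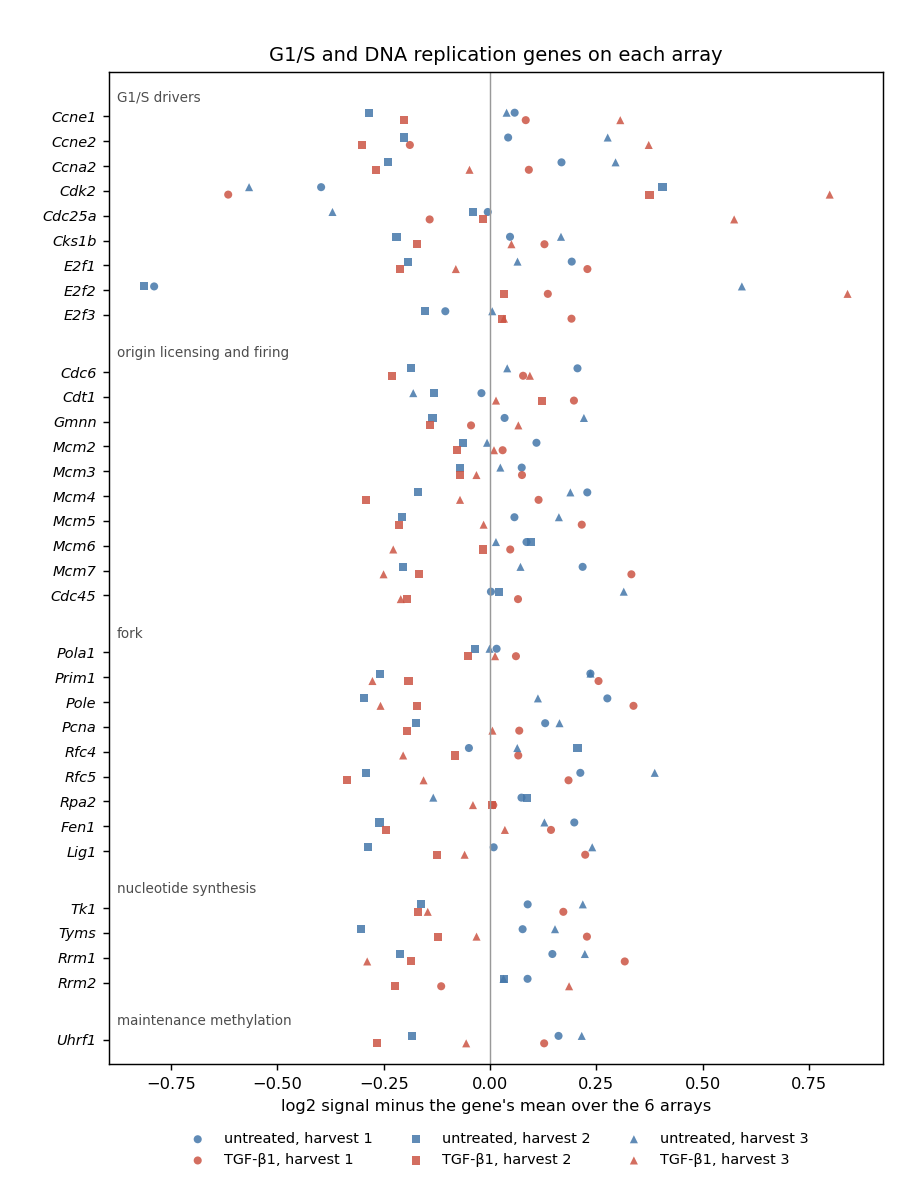
Log2 signal of each of the 33 genes on each array, minus the gene's mean over the 6 arrays (x axis), by role; blue marks untreated and red TGF-β1, with the marker shape giving the harvest. Harvest 2 (squares) lies left of the other harvests for most genes in both colours, and treated arrays lie wholly to the right of untreated ones for E2f3 and Cdt1 alone.

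Of the genes that license and fire origins, 1 of 10 changes was positive, and the median was -0.05. The positive one was Cdt1, the factor that loads the MCM helicase onto origins. It was at 5.46, 5.35 and 5.30 on the untreated arrays and 5.68, 5.61 and 5.50 on the treated ones. The groups did not overlap, with treated arrays higher by 0.22, 0.25 and 0.19 within harvests, and the change was 0.22 (SE 0.13, 95% confidence interval -0.09 to 0.53). It had the same direction within slide 1 (0.30) and within slide 2 (0.20). In limma with the harvest as a block its Benjamini-Hochberg adjusted p was 0.534. Together with E2f3 it made 2 genes of 33 without overlap on the higher side and 0 on the lower side, where 5.37% and 5.05% of all genes had such groups.

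Geminin (Gmnn), the inhibitor that binds Cdt1, had -0.08, and Cdc6, which loads the helicase alongside Cdt1, had -0.04. The 6 subunits of the MCM2-7 helicase ring stayed close to their untreated level. Mcm2 was at 3.98, 3.80 and 3.86 untreated and 3.90, 3.79 and 3.88 treated (log2 change -0.03, SE 0.13), and Mcm3 at 3.66, 3.52 and 3.61 untreated and 3.67, 3.52 and 3.56 treated (-0.02, SE 0.13). For both, the pair differences were at most 0.08 in size, and the groups overlapped.

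Mcm4 was at 5.33, 4.93 and 5.29 untreated and 5.22, 4.81 and 5.03 treated. It was lower in each harvest, but untreated array 2 lay below treated arrays 1 and 3 (log2 change -0.17, SE 0.18). Mcm5 was at 4.96, 4.70 and 5.07 untreated and 5.12, 4.69 and 4.89 treated, with a pair difference of either sign (-0.01, SE 0.17). For both subunits the harvest 2 arrays were the lowest of their group.

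Mcm6 read 6.66, 6.67 and 6.59 untreated and 6.62, 6.56 and 6.34 treated, lower in each harvest, with treated array 1 above untreated array 3 (log2 change -0.13, SE 0.14). Mcm7 read 5.59, 5.17 and 5.44 untreated and 5.70, 5.20 and 5.12 treated (-0.06, SE 0.21). The groups overlapped for both. Mcm6 was the one subunit whose level in harvest 2 was not the lowest.

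Cdc45, which joins the MCM ring to form the active helicase, had the lowest change of all 33. It was at 0.80, 0.82 and 1.11 untreated and 0.86, 0.60 and 0.59 treated, with pair differences of 0.06, -0.22 and -0.52 (log2 change -0.23, SE 0.16, 95% confidence interval -0.60 to 0.15). The treated array of harvest 1 lay above untreated arrays 1 and 2, so the groups overlapped.

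At the fork, 2 of 9 changes were positive and the median was -0.06. Pcna, the sliding clamp that tethers the polymerases, was at 5.55, 5.24 and 5.58 untreated and 5.49, 5.22 and 5.42 treated, slightly lower in each harvest with overlapping groups (log2 change -0.08, SE 0.16). Rfc5, a subunit of the clamp loader, had the lowest change. It was at 3.97, 3.46 and 4.14 untreated and 3.94, 3.42 and 3.60 treated, and the pair of harvest 3 accounted for most of the change (-0.21, SE 0.23; pair differences -0.03, -0.04 and -0.54).

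DNA ligase 1 (Lig1), which seals Okazaki fragments, had the highest change of the fork genes. It was at 4.77, 4.47 and 5.00 untreated and 4.98, 4.63 and 4.70 treated, higher in harvests 1 and 2 and lower in harvest 3, with overlapping groups (0.03, SE 0.19). Polymerase α (Pola1, 0.01), primase (Prim1, -0.14) and polymerase ε (Pole, -0.06) start and extend the new strands. The clamp loader subunit Rfc4 had -0.15, the single-strand binding subunit Rpa2 -0.02 and the flap nuclease Fen1 -0.04. None of these passed the threshold in limma with Benjamini-Hochberg adjustment.

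Nucleotide synthesis gave a median of -0.10 over 4 genes. Ribonucleotide reductase turns ribonucleotides into deoxynucleotides, and its subunits Rrm1 and Rrm2 had the lowest changes of the 4, alike to 2 decimals. The large subunit Rrm1 was at 5.01, 4.65 and 5.09 untreated and 5.18, 4.68 and 4.58 treated, with pair differences of 0.17, 0.03 and -0.51 (log2 change -0.10, SE 0.21). The small subunit Rrm2 was at 2.54, 2.49 and 2.48 untreated and 2.34, 2.23 and 2.64 treated (-0.10, SE 0.15), so that the pair differences of the subunits had opposite signs in each harvest. The groups of both overlapped.

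Thymidine kinase 1 (Tk1) salvages thymidine. Its level was 2.92, 2.67 and 3.05 untreated and 3.0, 2.66 and 2.69 treated (log2 change -0.10, SE 0.17). Thymidylate synthase (Tyms) makes thymidylate from deoxyuridylate and had the one positive change of the 4 genes. It was at 4.41, 4.03 and 4.49 untreated and 4.56, 4.21 and 4.30 treated (0.05, SE 0.18). Uhrf1 brings the maintenance methyltransferase to newly copied DNA, and was at 4.10, 3.76 and 4.15 untreated and 4.07, 3.67 and 3.88 treated, lower in each harvest (-0.13, SE 0.18). The groups of all 3 genes overlapped.

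Over the 33 genes, 4 were higher in all 3 harvests (Ccne1, E2f2, E2f3 and Cdt1) and 7 were lower in all 3, where 14.1% and 20% of all genes were. The 7 lower ones were Ccna2, Gmnn, Mcm4, Mcm6, Pcna, Rfc5 and Uhrf1, and their changes ran from -0.21 to -0.08. The median change of the 33 was 0.02 in harvest 1, -0.01 in harvest 2 and -0.15 in harvest 3, where all genes had -0.07, -0.07 and 0.11. The arrays of harvest 3 lie on different slides, untreated on slide 1 and treated on slide 2.

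The 33 genes shared a pattern over the harvests. Harvest 2 had the lowest mean for 27 of the 33 genes (81.8%), against 32.0% of all genes. For 23 of the 33 (69.7%) both harvest 2 arrays were below both harvest 1 arrays, against 24.6% of all genes. The range of the 3 harvest means (2 arrays each) had a median of 0.35 log2 units over the 33 genes, against 0.37 over all genes. The size of the treatment change (a difference of 2 means of 3 arrays) had a median of 0.10, against 0.12 over all genes. The range was the greater in 28 of 33, the same share (84.8%) as over all genes, so a harvest range above the treatment change was not particular to the list.

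Set against each gene's own mean, the median of the 33 was 0.08, -0.18 and 0.13 on untreated arrays 1, 2 and 3 and 0.11, -0.17 and -0.03 on the treated ones. Both harvest 2 arrays were therefore low together, whichever group they belonged to. All genes went the other way, with medians of -0.03, 0.08 and -0.03 untreated and -0.08, 0.01 and 0.08 treated. The pattern held across roles, since harvest 2 was lowest for 7 of 9 drivers, 8 of 10 licensing genes, 7 of 9 fork genes, 4 of 4 nucleotide genes and Uhrf1. The exceptions were Cdk2, Cdc25a, Cdt1, Mcm6, Rfc4 and Rpa2.

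**Figure D3:**
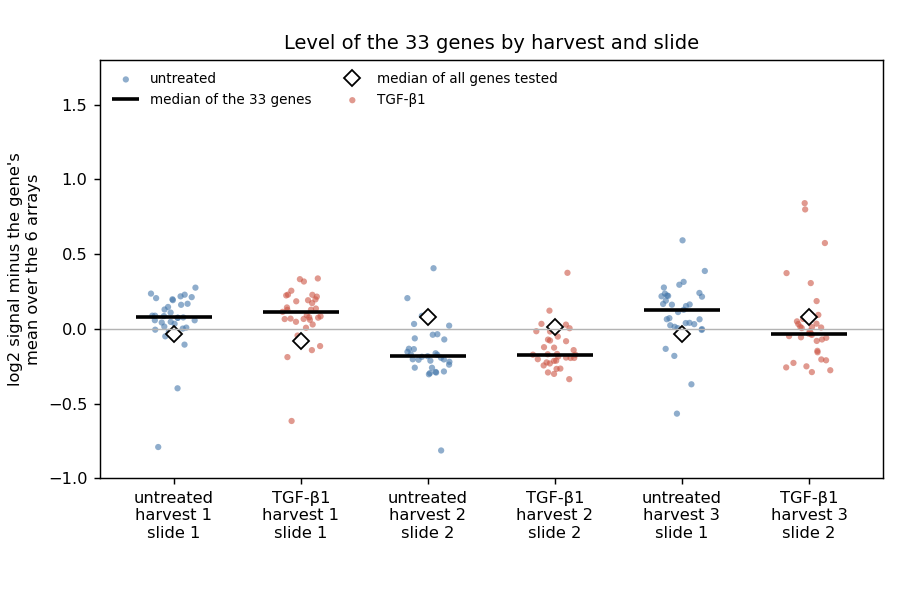
Log2 signal of the 33 genes minus each gene's mean over the 6 arrays, by array (small points), with their median (bar) and the median of all genes tested (diamond); arrays are ordered by harvest and labelled with their slide. The bar lies at -0.18 and -0.17 in harvest 2, below the diamond, and at 0.08 and 0.11 in harvest 1, above it.

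Other measures moved with the harvest. The summed signal of the 5 fibroblast and stroma markers, in multiples of the array's 75th percentile, was 21.3, 65.7 and 1.31 on the untreated arrays and 24.5, 62.9 and 1.55 on the treated ones, highest in harvest 2 and lowest in harvest 3. All 5 were well above background on all 6 arrays, except the Pdgfra probe used, which was so on 5. The sum of the mast cell and basophil markers (4 of 4 well above background throughout) was also highest in harvest 2 in each group. It was 27.0, 33.4 and 22.1 untreated and 22.9, 28.1 and 18.0 treated. Of these markers, Cpa3 alone was highest in harvest 2 in both groups. Mcpt8 and Fcer1a were so in the untreated group only, and Mcpt4 was lowest in harvest 2 in both groups. Granulocyte markers (5 of 5 well above background throughout) summed to 363, 365 and 424 untreated and 366, 373 and 398 treated. Most of that sum is Mpo, and the other markers differed more between harvests. In log2, S100a8 was at 1.51, 3.12 and 4.89 untreated and 1.87, 3.39 and 4.77 treated. Elane, Ltf and Camp also rose from harvest 1 to 2 to 3 in both groups. The part of any of these in the level of the replication genes was not tested. In bulk RNA, fewer cells in S phase and less RNA of these genes per cell cannot be told apart.

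The arrays lay on 2 slides, as the file headers record: slide 1 held untreated arrays 1 and 3 and treated array 1, and slide 2 held untreated array 2 and treated arrays 2 and 3. Harvests 1 and 2 therefore lie wholly on different slides, and between these harvests the slide cannot be told apart from the harvest. Within the untreated group the 33 genes were lower on slide 2 by a median of -0.32 (28 of 33 lower), where all genes had 0.11. Within the treated group the median was -0.19 (27 of 33 lower) against 0.11. The size of this difference depended on the scaling: the untreated arrays gave -0.62 with the array median in place of the 75th percentile and -0.08 in the authors' deposited log2 values. It was negative in each of the scalings tried (normexp, quantile, array median and the deposited values) in both groups. Over all genes the untreated difference was -0.27, -0.03, -0.19 and -0.02 in the same order. The treated difference over all genes was 0.27, -0.0008, -0.12 and -0.006. With normexp the untreated 33 genes (-0.11) were thus less negative than all genes.

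Because slide 2 held 2 of the 3 treated arrays and 1 of the 3 untreated, the slide bears on the treatment change. With the slide as a block the median of the 33 was 0.02, against -0.06 over all genes. Of the 33, 22 were positive and 11 negative, and 12 turned from a negative to a positive value. Within slide 1 the median was 0.02, against -0.07 over all genes, and within slide 2 it was 0.08, against -0.04. Harvest 3 lies on both slides, so all of these values set arrays of different harvests against each other. With the harvest as a block on harvests 1 and 2, whose pairs each lie on 1 slide, the median was -0.02, against -0.07 over all genes. In the fit with the slide block 0 of the 33 passed, where 0.202% of all genes did. The lowest adjusted p was 0.506, that of Cdt1 (limma with Benjamini-Hochberg adjustment). The sign of the small median therefore turned with the slide block. Within both slides alike, 4 of the 33 genes were negative and 15 positive. The signs over all genes with the slide block or within slides are not given here.

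**Figure D4:**
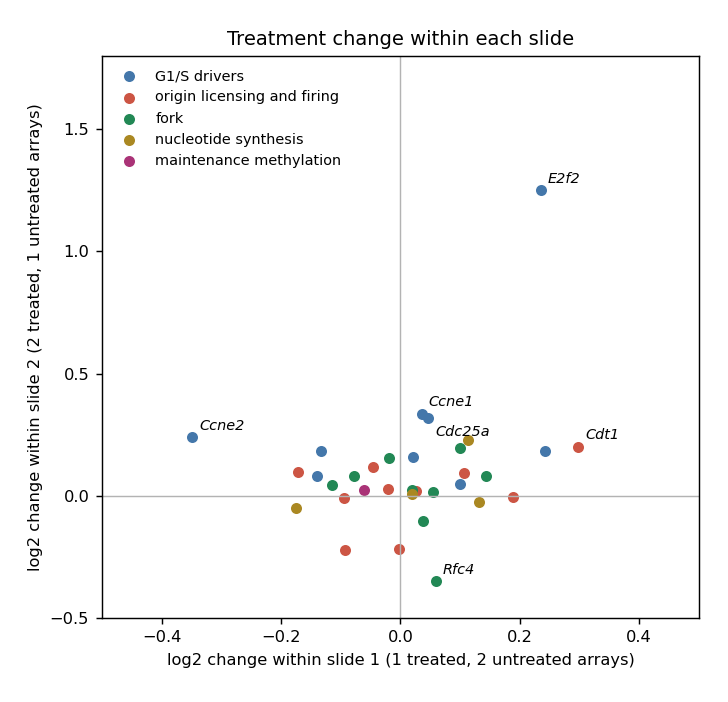
Log2 change of each of the 33 genes within slide 1 (x axis, 1 treated and 2 untreated arrays) against that within slide 2 (y axis, 2 treated arrays and 1 untreated), coloured by role. E2f2 stands apart at 0.23 and 1.25, Cdt1 lies at 0.30 and 0.20, and most other genes lie within 0.25 of 0 on both axes.

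A wider list of replication genes also had small changes and 0 calls, but a larger share of it was lower in all 3 harvests. Of 58 such genes (origin recognition, other polymerase and clamp loader subunits, checkpoint and chromatin assembly factors, other E2F and pocket-protein genes), 57 were measured and 0 passed in limma with Benjamini-Hochberg adjustment, with or without the harvest as a block. At an unadjusted p under 0.05 there was 1 without it, E2f5, and 2 with it, where 5.77% and 10.9% of all genes had such a p. The median change was -0.08, with 18 positive and 39 negative, where all genes had 14172 and 14989. In all 3 harvests, 25 of the 57 were lower and 6 higher, where 20% and 14.1% of all genes were. The highest were Timeless, a fork protection factor (0.34, SE 0.15), and E2f4, a repressor E2F (0.34, SE 0.17). The lowest were the repressor E2F genes E2f5 (-0.40, SE 0.13) and E2f8 (-0.39, SE 0.16).

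Over the 57 genes, 2 had groups that did not overlap on the higher side and 2 on the lower side, where 5.37% and 5.05% of all genes had such groups. The 4 genes named here were taken as the extremes of the list, and 3 of them are among those 4. Timeless was at 2.24, 2.23 and 2.15 untreated and 2.40, 2.49 and 2.76 treated. E2f4 was at 0.08, 0.14 and -0.11 untreated and 0.20, 0.29 and 0.64 treated. E2f5 was at -1.75, -1.83 and -1.94 untreated and -2.14, -2.23 and -2.34 treated, and E2f8, at 1.01, 0.79 and 1.14 untreated and 0.50, 0.47 and 0.81 treated, overlapped by 1 array. The E2F genes thus differed among themselves in sign, and none passed the threshold.

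G2/M genes, which act after replication, had a median of -0.10 over 26 measured of 28 listed, with 3 positive and 23 negative and 0 past the threshold in limma with Benjamini-Hochberg adjustment. Over all genes 14172 were positive and 14989 negative. In all 3 harvests, 12 of the 26 were lower and 0 higher, where 20% and 14.1% of all genes were. The level of the G2/M genes was also lowest in harvest 2, for 23 of 26 genes (88.5%). Over the 6 arrays, the transcripts whose pattern was most like the mean of the 33 were 5 with a Pearson r between 0.994 and 0.999. Cbll1 and Ccdc86 are the named ones among them. All 5 were picked as the highest of all tested transcripts outside the list, and over so few arrays such a search yields a high r by itself. These 6 points share harvests and slides, and with the harvest 2 arrays left out r ran from 0.925 to 0.9996.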

How the data were processed

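Cy3-labelled RNA was hybridised to Agilent mouse arrays of design 014868. Per the file headers, spots were read with version 10.1.1.1 of Agilent Feature Extraction, and the deposited processed intensity is corrected for background and spatial trend on each array without scaling across arrays. The authors' deposited matrix holds log2 values that follow each array's log2 median spot signal (r between 0.9995 and 0.9999); the sources used here do not give its scaling. The submitters' processing notes name limma without a version.

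Log2 processed intensity was set relative to each array's 75th percentile over non-control spots, and outlier spots were left out. Probes with a value on all 6 arrays that stood well above background on 3 or more were kept (36343 of 41174). Through the RefSeq accession and the table of assembly GRCm38.p6, 23374 probes had a symbol. The brightest passing probe stood for a gene. Where genes have a second passing probe (8 of the 33), the 2 probes differed in sign for Cdk2 alone. The group comparison used lmFit and eBayes of limma 3.58.1 (R 4.3.3) without covariates. P-values were adjusted by Benjamini-Hochberg across the 29161 features tested, and 0.05 was the threshold. The model was tested on simulated data. The number of arrays limits the precision.

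Deviations from the group means correlated at 0.636, 0.786 and 0.557 between same-numbered samples and at -0.736 to 0.0712 otherwise. The series design names independent harvests, so the numbers were taken to pair the samples, and paired values stand beside results where they matter. Residual SDs had a median of 0.241, or 0.157 when the block was included.

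The genes, role lists and settings were chosen with earlier results of these data known. Values on every array are given for genes past the threshold, those highest and lowest in each role, those with groups that do not overlap and textbook examples (Ccne1, E2f1, Cdt1, Mcm2 to Mcm7, Pcna, Rrm2 and Tk1). Of the wider list, the 2 highest and 2 lowest are named. Cdk2 and Cdc25a are described further after their values were seen; the rule for probes that differ in sign by over 0.5 took no gene, and Cdk2's differed by just under that. Alternatives were the replicate or slide block, normexp, quantile and median scaling, the deposited matrix values, other filters, array weights, the mean of probes and each array left out. Normexp was planned on mean signals and was run on median signals (offset 50), which the files hold.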

Additional observations from a re-analysis of the deposited data

How the results depend on the processing

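Of the 33 genes, 0 passed in limma with Benjamini-Hochberg adjustment in any setting that gives a test, so no call among them changed with the processing or with the replicate block; the lowest adjusted p was 0.0664 (E2f2, harvests 1 and 2 only, with the block). Over 20 settings, 580 of 660 values stayed within 1 SD of the pair differences and 112 had the other sign. The replicate block and the other filters count among the 20. They could not move these values, since they left the probe and the difference of means as they were. What did move was the count over all genes: against 74 it was 196 with the replicate block, 174 in the deposited matrix values, 671 with array weights, 47 with median scaling, 5 with normexp and 26 with the replicate block but without harvest 2 (chosen after seeing the data), and 7 to 24 with 1 array left out.

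The median of the 33 was -0.23 with array weights, which ran from 0.373 (untreated 2) to 5.34 (TGFb1 2), and 0.0786 within slide 2. With 1 array left out it ran from -0.12 (without untreated 2) to 0.02 (without untreated 1). Normexp put it at 0.03, with the median of all genes at -0.15. For the wider list the median was -0.0044 with the slide block, 0.0027 with normexp, -0.25 with array weights, -0.0372 within slide 1 and 0.0442 within slide 2, and -0.16 to -0.0046 with 1 array left out. For G2/M genes it was -0.24 with array weights, 0.0655 within slide 2 and -0.18 to -0.0031 with 1 array left out. The slide difference of the 33 was -0.11 (normexp), -0.15 (quantile), -0.62 (median scaling) and -0.0774 (matrix) untreated, and -0.0917 (quantile), -0.41 (median scaling) and -0.0553 (matrix) treated. The cause was not tested. Array weights do not enter the slide difference, so it was not run with them. All 33 probes were well above background on all 6 arrays. The treatment of background still bore on the small changes. With normexp, 13 of the 33 had the other sign and 8 moved by more than 1 SD of the pair differences.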
